A study of Mus musculus with 6 samples.

Results

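The epicardial and mesothelial genes described here are the 10 genes of the deposited table, out of 54532, whose symbols are *Wt1*, *Upk1b*, *Upk3b*, *Msln*, *Aldh1a2*, *Rspo1*, *Tbx18*, *Krt8*, *Krt19* and *Lrrn4*. They were chosen by name and all 10 were found. The series asks, by its title, how diabetes in pregnancy affects the heart of the young. RNA was measured in whole heart tissue of ICR mice, an outbred stock labelled wild type, with 3 control hearts, whose mothers received citric acid by intraperitoneal injection in pregnancy, and 3 hearts of young whose mothers received STZ by the same route. STZ is read here as streptozotocin, a toxin of the insulin-producing beta cell, and the titles give 4 d, read as day 4 for both groups. The labels do not state litter, pooling or sex. Without that information, p-values measure the spread between these 6 samples, which may in part be technical.

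The epicardium is the mesothelial sheet that covers the heart, and the same kind of sheet lines the pericardial, pleural and peritoneal cavities. In the embryo, epicardial cells make retinoic acid and other signals for the growing muscle wall, and some leave the sheet to become fibroblasts and mural cells. *Wt1*, *Tbx18* and *Aldh1a2* are used as markers of that embryonic programme, and uroplakins, mesothelin and simple-epithelial keratins as markers of the epithelial character of the sheet. In bulk tissue, fewer cells of a type and less RNA per cell cannot be told apart, and none of these genes is made by mesothelium alone.

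Values are FPKM, fragments per kilobase of gene length on a per-library scale set by the authors. They correspond to 16707268 to 18082599 recovered reads per library. The authors' scale was 1.21 times the recovered total in control 2 and 0.985 to 1.03 times in the other 5 libraries. All 6 libraries carried heart muscle RNA, since the summed level of 10 cardiomyocyte markers was 7167 to 16837 FPKM in controls and 14706 to 15845 FPKM in STZ hearts. Control 2 was the lowest. It also stood apart in its atrial genes, at a summed 6323 FPKM over 9 markers against 49.5 to 131 FPKM in the other 5 libraries. *Xist*, the RNA of the inactive X chromosome, was at 70.6 FPKM in control 3 and at most 0.0541 FPKM in each other library, while the 4 summed Y-linked transcripts were at 0 in control 3 and at 34.7 to 45.5 FPKM elsewhere. Results below are therefore also given without control 2 and, where it matters, without control 3.

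All 10 genes were detected in all 6 hearts. Their summed level was 58.0, 120 and 82.4 FPKM in controls 1 to 3 and 60.5, 57.6 and 64.6 FPKM in STZ 1 to 3. Controls 2 and 3 were thus above all STZ hearts and control 1 lay among them. In 8 of the 10 genes the highest value of the series belonged to control 2. Among the 9 genes that could be tested this held for 7, where control 2 was the highest library for 27.4% of all 12431 genes tested. In 7 of the same 9, controls 2 and 3 both lay above every STZ heart, a pattern noticed after the values were seen and shown by 8.30% of all genes tested.

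**Figure D1:**
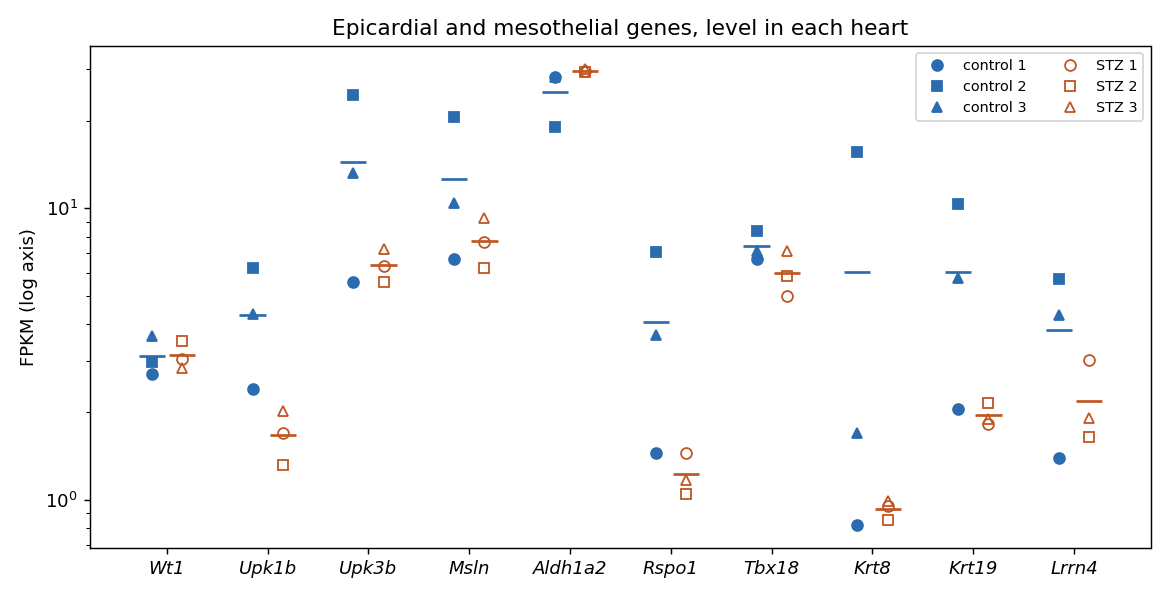
FPKM of each gene (log axis) in 3 control hearts (filled blue) and 3 STZ hearts (open orange), with the mean of each group as a bar and the replicate number as the symbol. Control 2 lies far above the STZ hearts in *Upk3b*, *Rspo1*, *Krt8* and *Krt19*, control 1 lies among or near them, and *Wt1* and *Aldh1a2* show no such spread upward.

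RNA of the mesothelial surface protein genes had a larger SD among the controls than among the STZ hearts. This was not particular to them: *Wt1* (0.492 against 0.342 FPKM) and *Aldh1a2* (5.29 against 0.393 FPKM) had it too, but not *Tbx18* (0.854 against 1.08 FPKM). Control 2 was the highest library for 27.4% and the lowest for 41.8% of all genes tested. The share of all genes with a larger SD among controls was not computed. *Upk3b* encodes uroplakin 3B, a membrane protein named for the urothelial plaque family and widely used as a mesothelial marker (GRCm38 chromosome 5, 136038496 to 136046487, plus strand). It was at 5.59, 24.4 and 13.2 FPKM in controls 1 to 3 and at 6.34, 5.56 and 7.24 FPKM in STZ 1 to 3. Control 1 fell within the STZ range while controls 2 and 3 were 3.83 and 2.08 times the STZ mean, so the groups overlapped. The log2 fold change on the FPKM + 1 scale, STZ over control, was -0.86 (SE 0.446, 95% interval -1.92 to 0.20), and without control 2 it was -0.40.

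*Upk1b*, a tetraspanin uroplakin gene (chromosome 16, 38773184 to 38800328, minus strand), was the member whose groups separated downward. Its values were 2.39, 6.22 and 4.35 FPKM in controls and 1.70, 1.31 and 2.01 FPKM in STZ hearts. Every control lay above every STZ heart, although control 1 exceeded STZ 3 by little. The control mean was 4.32 ± 1.92 FPKM and the STZ mean 1.67 ± 0.352 FPKM (SD, n = 3 each), a log2 fold change of -0.93 (SE 0.273, 95% interval -1.58 to -0.28), tested with limma (p = 0.0116 unadjusted, 0.922 after Benjamini-Hochberg (BH) adjustment over all genes; exact permutation p = 0.1, two-sided and the smallest that 3 against 3 allows). Without control 2 the difference was -0.68 and without control 3 it was -0.90. The counts behind it were small: 46 to 78 reads per STZ heart and 84, 278 and 159 reads in the controls. For control 1 the exact Poisson 95% interval, 1.90 to 2.96 FPKM, overlapped that of STZ 3, 1.59 to 2.51 FPKM. Such intervals cover counting error only.

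*Msln* encodes mesothelin, a surface glycoprotein anchored in the mesothelial membrane (chromosome 17, 25748614 to 25754327, minus strand). It was at 6.71, 20.6 and 10.5 FPKM in controls and 7.69, 6.22 and 9.28 FPKM in STZ hearts. Control 1 again lay inside the STZ range, and control 3 was only slightly above STZ 3. The log2 fold change of -0.52 (SE 0.359) was -0.12 without control 2. *Lrrn4* encodes a leucine-rich repeat membrane protein first described in neurons and also used as a mesothelial marker (chromosome 2, 132868305 to 132880891, minus strand). It was at 1.39, 5.73 and 4.30 FPKM in controls and 3.01, 1.63 and 1.90 FPKM in STZ hearts. Here control 1 was the lowest library of all, and the log2 fold change of -0.49 (SE 0.384) was -0.19 without control 2 and -0.93 without control 1.

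*Rspo1* encodes R-spondin 1, a secreted protein that strengthens Wnt signalling by binding LGR receptors and removing the ubiquitin ligases ZNRF3 and RNF43 from the cell surface (chromosome 4, 124986430 to 125009099, plus strand). It was at 1.44, 7.09 and 3.68 FPKM in controls and at 1.45, 1.04 and 1.17 FPKM in STZ hearts. Control 1 and STZ 1 were nearly equal, at 47 and 50 reads, whereas controls 2 and 3 carried 294 and 125 reads. The exact Poisson 95% interval of control 3, 3.06 to 4.39 FPKM, lay above those of all 3 STZ hearts, which together spanned 0.723 to 1.91 FPKM. The log2 fold change was -1.03 (SE 0.399; limma p = 0.0369 unadjusted, 0.922 BH-adjusted, exact permutation p = 0.2), and -0.61 without control 2.

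Promoters are shown for genes of the variable set (*Upk3b*, *Lrrn4*, *Rspo1*) and for *Aldh1a2*, which did not follow it, so that the sequences can be compared. They are the 250 bases before the RefSeq transcript start on GRCm38.p6, written 5′ to 3′ on the gene's strand, and 6 of the 10 members had an entry. The last bases of the *Lrrn4* window lie inside the gene as the deposited table places it. A longer stretch of the *Krt8* window, counted below but not shown, does so too. That window runs from 102004343 to 102004592, and the gene is placed up to 102004482. Capitals mark GGAATG on either strand, the core site of TEAD factors, the DNA-binding partners of YAP and TAZ.
Upk3b, chr5:136038246-136038495, plus strand: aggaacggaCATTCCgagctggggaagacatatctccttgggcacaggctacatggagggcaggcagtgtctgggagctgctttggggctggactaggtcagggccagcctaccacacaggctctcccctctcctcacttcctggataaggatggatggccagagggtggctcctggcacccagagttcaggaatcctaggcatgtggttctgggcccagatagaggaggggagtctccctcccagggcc
Lrrn4, chr2:132880863-132881112, minus strand: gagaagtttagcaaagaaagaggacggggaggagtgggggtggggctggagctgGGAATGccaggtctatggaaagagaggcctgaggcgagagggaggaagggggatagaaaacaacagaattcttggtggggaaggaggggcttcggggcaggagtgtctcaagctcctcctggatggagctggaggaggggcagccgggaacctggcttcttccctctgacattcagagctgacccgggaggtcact
Rspo1, chr4:124986180-124986429, plus strand: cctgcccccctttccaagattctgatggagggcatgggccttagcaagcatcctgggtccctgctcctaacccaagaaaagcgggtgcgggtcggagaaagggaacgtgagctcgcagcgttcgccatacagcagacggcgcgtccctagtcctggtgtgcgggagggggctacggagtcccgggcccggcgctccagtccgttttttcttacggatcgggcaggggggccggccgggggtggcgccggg
Aldh1a2, chr9:71215539-71215788, plus strand: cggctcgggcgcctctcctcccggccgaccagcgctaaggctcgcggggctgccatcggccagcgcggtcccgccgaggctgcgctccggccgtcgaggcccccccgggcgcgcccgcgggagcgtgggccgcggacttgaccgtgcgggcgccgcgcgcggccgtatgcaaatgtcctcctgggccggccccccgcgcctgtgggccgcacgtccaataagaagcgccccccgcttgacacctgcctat

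GGAATG lay 241 bases before the start of *Upk3b* and 196 bases before that of *Lrrn4*, and in none of the other 4 member promoters with an entry, *Aldh1a2*, *Krt8*, *Rspo1* and *Tbx18*. It is found in 12.6% of 27025 RefSeq promoters of this length. Of the other motifs searched on both strands, GTGGGNG, a core shared by WT1 and EGR factors, was in 2 of the 6 (*Lrrn4* and *Tbx18*) and in 27.8% of all promoters. The site of GATA factors, searched as AGATAA, was in *Krt8* and in 10.3% of all promoters. The T-box site, searched as GTGTGA, and the SP1 site, searched as GGGCGG, were in none of the 6, against 12.2% and 32.9% of all promoters. The *Aldh1a2* promoter was the richest of the 6 in G and C, at 77.6%, where the median of all promoters was 52%, and that of *Rspo1* followed at 66.8%.

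The keratins form the intermediate filaments of simple epithelia, where the type II keratin 8 pairs with the type I keratins 18 and 19. *Krt19* (chromosome 11, 100140810 to 100148665, minus strand) was at 2.05, 10.3 and 5.75 FPKM in controls and 1.82, 2.15 and 1.89 FPKM in STZ hearts. The STZ hearts differed little, at 1.95 ± 0.174 FPKM (SD, n = 3), and control 1 was among them. Its log2 fold change was -1.06 (SE 0.432; limma p = 0.0443 unadjusted, 0.922 BH-adjusted, exact permutation p = 0.2) with all libraries and -0.62 without control 2. *Krt8* (chromosome 15, 101996698 to 102004482, minus strand) was at 0.819, 15.7 and 1.69 FPKM in controls and at 0.947, 0.851 and 0.991 FPKM in STZ hearts. Control 2 held 656 *Krt8* reads where the other 5 libraries held 27 to 58, and was 9.26 times the next highest library. Because *Krt8* reached 1 FPKM in controls 2 and 3 alone, it did not enter the limma fit, and its exact permutation p, two-sided, was 0.4. *Krt18*, the usual partner of *Krt8*, was at 2.65, 20.4 and 4.13 FPKM in controls and 1.995, 5.34 and 5.89 FPKM in STZ hearts. *Krt8* over *Krt19* was 1.52 in control 2 and 0.294 to 0.525 in the other 5 libraries, so the keratins did not rise there in the proportions seen elsewhere.

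*Wt1* and *Aldh1a2* behaved differently, whereas *Tbx18* also had controls 2 and 3 above every STZ heart, control 3 by a small margin. *Wt1* encodes the zinc finger factor of the Wilms tumour locus, required for the formation of the epicardium (chromosome 2, 105126529 to 105173616, plus strand). It was at 2.69, 2.97 and 3.65 FPKM in controls and 3.05, 3.51 and 2.84 FPKM in STZ hearts. The groups were interleaved and control 2 was not high. The means were 3.10 ± 0.492 and 3.13 ± 0.342 FPKM (SD, n = 3 each), with a log2 fold change of 0.013 (SE 0.128). The 95% interval ran from -0.29 to 0.32, so a difference within that range in either direction is compatible with these values. The sign of the *Wt1* difference changed with the scaling and the library left out.

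*Aldh1a2* encodes the retinaldehyde dehydrogenase that makes retinoic acid in embryonic epicardium (chromosome 9, 71215789 to 71296243, plus strand), and had the highest mean level per kilobase of the 10 in both groups, although in control 2 it lay below *Upk3b* and *Msln*. It was at 28.17, 18.999 and 28.17 FPKM in controls and 29.5, 29.4 and 30.1 FPKM in STZ hearts. Every STZ heart lay above every control, by a small margin over controls 1 and 3, and control 2 was the lowest library, as it was for 41.8% of all genes tested, opposite to its place for the surface genes. The log2 fold change was 0.25 (SE 0.167; exact two-sided permutation p = 0.1, the smallest possible) and 0.073 without control 2. *Tbx18* encodes a T-box factor of the embryonic epicardium and of mural cells (chromosome 9, 87702800 to 87731260, minus strand). It was at 6.70, 8.35 and 7.16 FPKM in controls and 4.99, 5.87 and 7.14 FPKM in STZ hearts. STZ 3 lay within the control range, and the log2 fold change was -0.27 (SE 0.144), or -0.19 without control 2.

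None of the 9 tested members passed a BH-adjusted limma p of 0.05, where 0.0161% of all genes passed as higher and 0.00804% as lower. At an unadjusted limma p under 0.05, 3 members (*Upk1b*, *Rspo1* and *Krt19*) were lower and 0 higher, against 1.42% and 1.17% of all genes tested. By the voom fit on recovered reads the count was 2 lower and 0 higher. Groups did not overlap for *Upk1b* (lower) and *Aldh1a2* (higher), against 3.62% and 4.92% of all genes. The fold change was below 0 for 7 of the 9, against 42.3% of all genes, and the members' median was -0.52 against 0.031 over all genes tested. Without control 2 the median over all genes tested was -0.0016, and 6289 of 12431 genes had a fold change below 0. The members' median in that fit was -0.19, with 8 of 9 below 0. *Upk1b* alone was under an unadjusted limma p of 0.05, where 1.87% of all genes were lower and 2.06% higher at that p. Without control 1 the members lower at that p were 6 (*Upk1b*, *Upk3b*, *Msln*, *Rspo1*, *Krt19* and *Lrrn4*), against 2.40% of all genes. The count was 1, *Upk1b*, without control 3, STZ 1 or STZ 2, against 2.82%, 1.16% and 0.885% of all genes, and 2 (*Upk1b* and *Tbx18*) without STZ 3, against 1.08%. The fibroblast markers moved with the members: all 10 had a fold change below 0, with a median of -0.45 and 5 without overlap, and without control 2 all 10 were still below 0 with a median of -0.19. Their part in the members' differences was not tested. All 9 tested members were above 1 FPKM in all 6 hearts, so none entered the fit through 1 group alone.

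**Figure D2:**
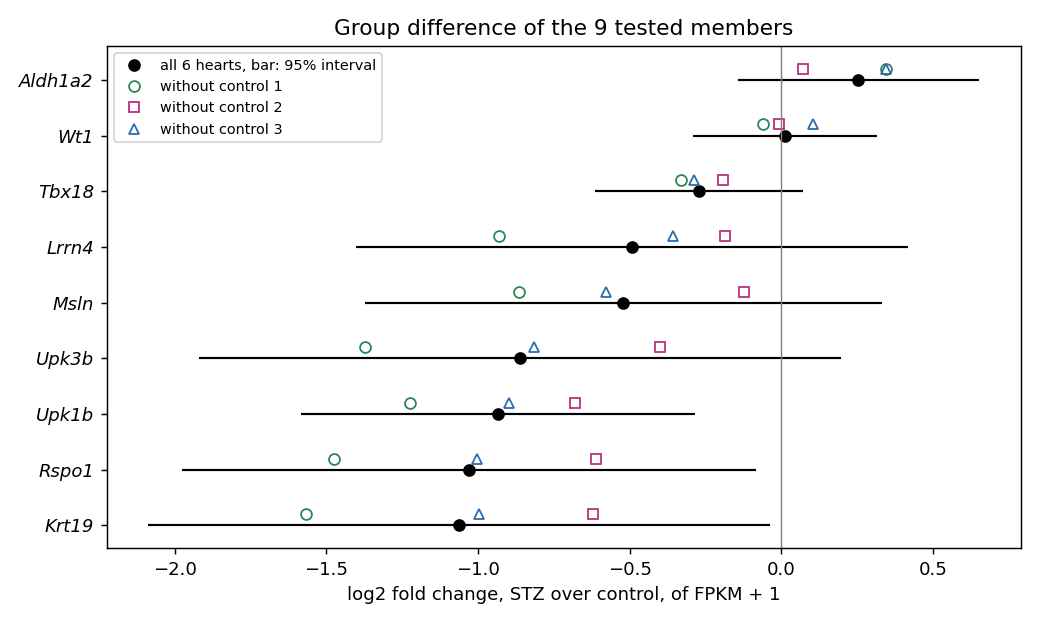
Log2 fold change, STZ over control, of FPKM + 1 for the 9 tested genes (black, with the 95% limma interval), and the same with control 1, 2 or 3 left out (open symbols). Leaving out control 2 moves the 6 lowest genes towards 0, leaving out control 1 moves them away, and *Wt1* stays near 0 throughout.

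Ratios within a library do not depend on the authors' scale. *Upk3b* over *Wt1*, in FPKM, was 2.07, 8.23 and 3.63 in controls and 2.08, 1.59 and 2.55 in STZ hearts. Control 1 was thus like the STZ hearts in this ratio, and the surface gene and the transcription factor moved unequally in controls 2 and 3. *Upk1b* over *Wt1* was 0.886, 2.10 and 1.19 in controls and 0.556, 0.374 and 0.710 in STZ hearts, without overlap. *Rspo1* over *Upk3b* was 0.258, 0.291 and 0.278 in controls and 0.229, 0.188 and 0.161 in STZ hearts, also without overlap. Within the controls this last ratio hardly changed while *Upk3b* itself ran from 5.59 to 24.4 FPKM. *Rspo1* over *Upk3b* rested on 47 *Rspo1* reads in control 1 and 34 to 50 in STZ hearts. The exact Poisson 95% intervals of *Rspo1* in control 1 and STZ 1 overlapped almost wholly. Between groups, *Upk3b* over *Aldh1a2*, *Msln* over *Upk3b*, *Krt19* over *Upk3b*, *Krt8* over *Krt19* and *Krt18* over *Krt8* overlapped. How often other gene pairs give ratios without overlap was not computed. All these ratios were chosen after the values were seen and are given as a description.

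In STZ hearts, where no library stood apart, the order of the levels per kilobase was *Aldh1a2* (29.7 ± 0.393 FPKM), *Msln* (7.73 ± 1.53), *Upk3b* (6.38 ± 0.838), *Tbx18* (5.9995 ± 1.08), *Wt1* (3.13 ± 0.342), *Lrrn4* (2.18 ± 0.731), *Krt19* (1.95 ± 0.174), *Upk1b* (1.67 ± 0.352), *Rspo1* (1.22 ± 0.208) and *Krt8* (0.930 ± 0.0717; SD, n = 3). *Aldh1a2* stood clear of the rest. *Msln*, *Upk3b* and *Tbx18* overlapped in their individual values, as did *Wt1* with *Lrrn4*, and *Lrrn4*, *Krt19* and *Upk1b*, and *Upk1b* with *Rspo1*.

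Other genes known from epicardium and mesothelium varied in the same libraries. Of a list of 21 such genes, 11 could be tested, 2 had a positive and 9 a negative log2 fold change, and the median was -0.44, or -0.088 without control 2. None passed the BH-adjusted limma threshold, and 2 were lower at an unadjusted limma p under 0.05, where 42.3% of all genes had a negative fold change and 1.42% were lower at that p. *Gpm6a*, a neuronal membrane glycoprotein gene also made by mesothelium, was at 4.49, 10.1 and 7.10 FPKM in controls and 3.69, 3.41 and 3.67 FPKM in STZ hearts. Every control lay above every STZ heart (log2 fold change -0.78, SE 0.241; limma p = 0.0144 unadjusted, 0.922 BH-adjusted, exact permutation p = 0.1), and the difference was -0.54 without control 2. *Efemp1*, a fibulin of the extracellular matrix, was at 4.93, 12.6 and 8.60 FPKM against 2.68, 1.64 and 6.80 FPKM, with overlap through STZ 3 (log2 fold change -1.12, SE 0.451).

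*Nkain4*, a sodium pump-interacting membrane protein gene, was at 2.40, 19.1 and 5.02 FPKM in controls and 2.54, 2.55 and 3.35 FPKM in STZ hearts, the pattern of *Upk3b*. *Bnc1*, the basonuclin zinc finger gene of mesothelium, did not enter the fit and was at 0.486, 2.11 and 1.62 FPKM against 0.641, 0.371 and 0.812 FPKM. Controls 2 and 3 again stood above the STZ hearts. By contrast *Tcf21*, the basic helix-loop-helix factor of epicardium-derived fibroblasts, *Sema3d* and *Scx* had log2 fold changes of -0.27, -0.15 and -0.08 with overlapping groups. *Podxl* and *Ezr*, of the apical surface, were at their lowest in control 2, at 20.5 and 41.0 FPKM.

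**Figure D3:**
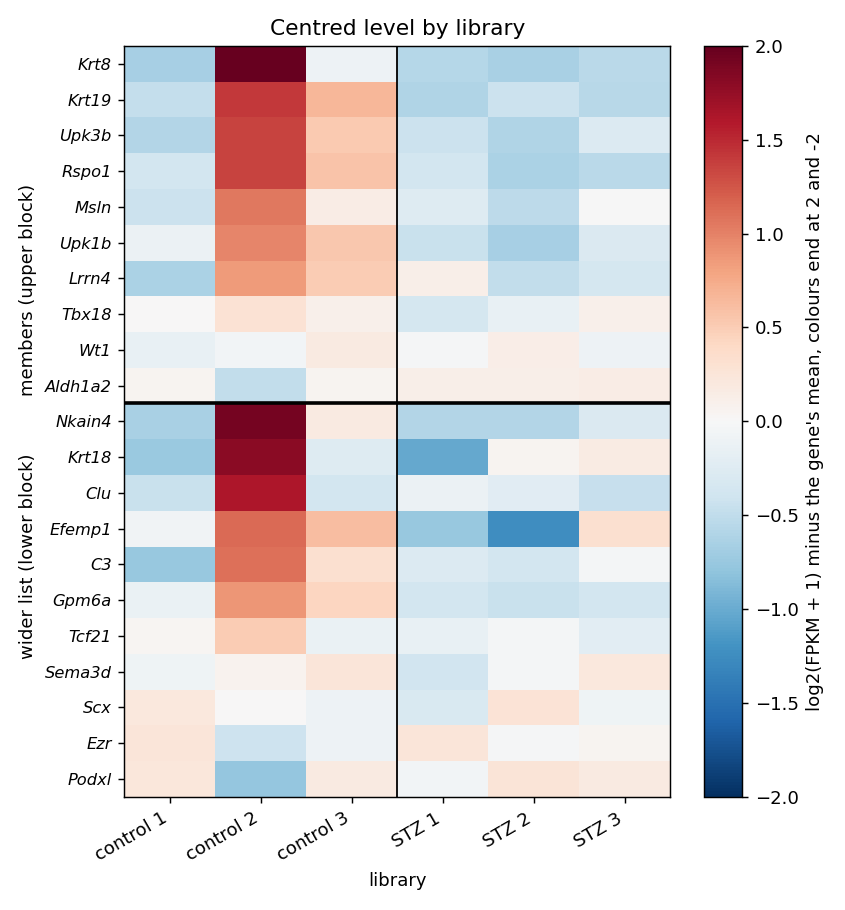
Level of each gene in each library on the log2(FPKM + 1) scale, centred on that gene's average across libraries, for the 10 members (upper block) and the 11 tested genes of the wider list (lower block), ordered by control 2 within each block. Control 2 is high for the surface, keratin and secreted genes, control 3 is moderately high for *Krt19*, *Upk3b*, *Rspo1*, *Upk1b*, *Lrrn4*, *Efemp1* and *Gpm6a* but not for *Krt8*, *Krt18*, *Clu* and *Tcf21*, and *Wt1*, *Aldh1a2*, *Scx*, *Ezr* and *Podxl* do not show this.

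The pathways in which *Aldh1a2* and *Rspo1* act showed no gene past the limma threshold. Of 18 other retinoic acid genes 10 were tested, 4 with a positive and 6 with a negative fold change and a median of -0.061. *Aldh1a1*, a related dehydrogenase gene, was at 1.72, 5.07 and 2.45 FPKM in controls and 1.45, 1.28 and 2.23 FPKM in STZ hearts, and the nuclear receptor gene *Rxra* was at 17.2, 12.6 and 14.7 FPKM against 16.8, 17.1 and 17.6 FPKM. Both overlapped between groups, and *Aldh1a1* was highest where *Aldh1a2* was lowest, in control 2. *Cyp26a1*, encoding an enzyme that degrades retinoic acid, was at 2.77 FPKM in control 2 and 0 to 0.127 FPKM elsewhere.

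Of 10 R-spondin pathway genes 2 were tested. The receptor gene *Lgr4* was at 11.98, 6.94 and 13.3 FPKM in controls and 13.2, 11.9 and 14.4 FPKM in STZ hearts, and the ligase gene *Znrf3* at 2.498, 2.04 and 2.42 against 1.98, 2.65 and 2.62 FPKM. *Rspo1* was the most abundant R-spondin, since *Rspo2* and *Rspo3* were at most 0.393 and 0.651 FPKM and *Rspo4* was listed at 0 in every library. *Axin2*, a common Wnt target gene, was under the filter at 0.604, 2.15 and 0.788 FPKM in controls and 0.408, 0.486 and 0.450 FPKM in STZ hearts. Its control values were all above its STZ values, with control 2 highest and control 3 next. Over all genes tested, 3.62% were lower without overlap. *Axin2* was named after its values were seen, and every other gene of the list overlapped between groups. Among these, *Lef1* was at 0.0405, 1.96 and 0.0909 FPKM in controls and 0.0576, 0.0745 and 0.0552 FPKM in STZ hearts. A relation of *Axin2* to *Rspo1* was not tested.

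Of the 3 other uroplakins, *Upk2* and *Upk3a*, which build the urothelial plaque, were listed at 0 in all 6 libraries and *Upk1a* was at 0.627 to 0.872 FPKM. Of 15 genes of epicardial transition and paracrine signalling, 14 were tested, 8 with a positive and 6 with a negative log2 fold change and a median of 0.017. With control 2 left out, 2 were positive and 12 negative, with a median of -0.091, where 6289 of all 12431 genes were negative. In the full fit 2 of the 14, *Twist1* and *Tgfb2*, were lower without overlap, against 3.62% of all genes tested. *Twist1*, a factor of mesenchymal transition, was at 2.74, 6.23 and 2.42 FPKM in controls and 1.76, 1.83 and 1.85 FPKM in STZ hearts, without overlap (log2 fold change -0.68, SE 0.277, and -0.35 without control 2). The guidance ligand gene *Slit3* was at 3.31, 13.6 and 4.39 FPKM against 3.58, 2.65 and 2.94 FPKM, highest in control 2, with control 3 also above the STZ hearts.

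Markers of other tissues moved with control 2 and were set beside the members. *Ucp1*, the uncoupling protein of brown fat, was at 213 FPKM in control 2 and listed at 0 in the other 5 libraries, as was *Adipoq* (20.4 FPKM in control 2), and the 6 brown fat markers summed to 96.0 to 424 FPKM in controls and 95.3 to 105 FPKM in STZ hearts. The 8 thymus markers summed to 86.5 FPKM in control 2, to 0.657 and 2.16 FPKM in controls 1 and 3 and to 0.891 to 1.75 FPKM in STZ hearts, with the recombinase gene *Rag1* at 25.5 FPKM in control 2. *Foxn1*, the factor of thymic epithelium, was at 0.567 FPKM there and listed at 0 in the other 5. The 9 surface epithelial markers summed to 5.50 FPKM in control 2 and to 0.348 to 0.833 FPKM elsewhere, with *Krt5* at 1.04 FPKM in control 2 and 0 elsewhere. The 7 liver markers summed to 7.56 FPKM in control 2, of which *Ahsg* made up 5.83, and to 0.738 to 1.02 FPKM elsewhere. The part of this other tissue in the high *Krt8*, *Krt19*, *Upk3b*, *Msln* and *Rspo1* of control 2 was not tested.

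Control 3 carried some of these signals at a far lower level. *Myl7*, the atrial light chain gene, was at 18.3 FPKM there (189 reads), against 5.03 FPKM in control 1 and 2.92 to 5.81 FPKM in STZ hearts. *Sln*, the sarcolipin gene of atrial muscle, was at 0.866 FPKM (20 reads) in control 3 and listed at 0 in control 1 and all STZ hearts. The atrial markers did not rise there as a list, and *Nppa* (20.2 FPKM) and *Bmp10* (0.496 FPKM) were at their lowest in control 3. Centred on each gene's mean on the log2(FPKM + 1) scale, the median of the 7 tested atrial markers was -0.94 in control 3. It was -0.72 in control 1 and -1.06 to -0.40 in STZ hearts. Among thymus markers, *Dntt*, the terminal transferase gene of lymphocyte precursors, was at 0.429 FPKM (16 reads) against 0 to 0.0793 FPKM in control 1 and the STZ hearts. The thymus sum of 2.16 FPKM and the fibroblast sum of 1073 FPKM, over 10 genes, both lay above all STZ hearts, where the fibroblast sums were 836 to 907 FPKM, and both lay under control 2, whose fibroblast sum was 1831 FPKM. The atrial sum of 59.5 FPKM was within the STZ range, the brown fat sum of 96.0 FPKM was too, and *Ucp1*, *Adipoq*, *Krt5* and *Foxn1* were listed at 0. The part of these signals in the control 3 values of *Upk1b*, *Upk3b*, *Rspo1*, *Krt19* and *Lrrn4*, and that of the property marked by *Xist* there, was not tested. With 1 such library, sex and any other property of control 3 cannot be told apart. Lung epithelial markers summed to 0.0274 to 2.59 FPKM over all libraries, with the highest value in STZ 2 and *Sftpa1*, *Sftpd* and *Nkx2-1* at 0 in all.

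**Figure D4:**
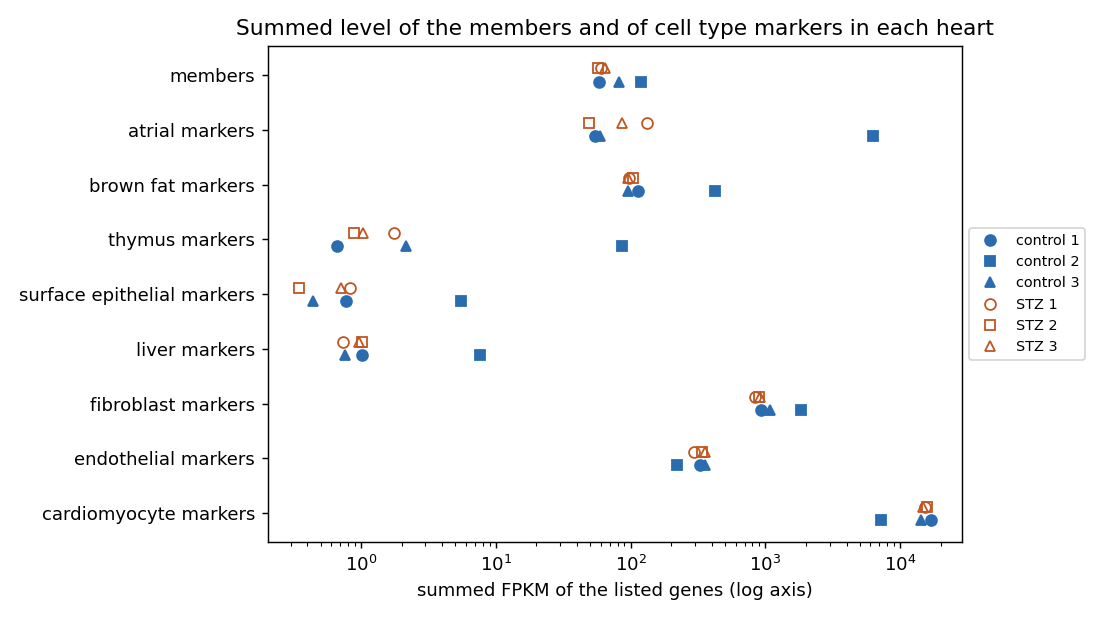
Summed FPKM (log axis) of the 10 members and of the markers of other cell types and tissues in each of 3 control (filled blue) and 3 STZ (open orange) hearts. Control 2 stands apart in atrial, brown fat, thymus, epithelial and liver markers and is lowest in cardiomyocyte markers, while control 3 lies above all STZ hearts in the members and also in the fibroblast and thymus markers.

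The genes whose centred profile over the 6 libraries came closest to the mean profile of the 9 tested members were, from the closest, *Col6a6*, *Serping1*, *Gpc3*, *Fndc1*, *Gpm6a*, *Cdh11*, *Npnt*, *Gsdmd*, *Col6a3* and *Susd2*. Their root mean square difference from it was 0.114 to 0.132 on the log2(FPKM + 1) scale, out of 10907 genes compared. The members' own differences ran from 0.192 for *Msln* to 0.613 for *Aldh1a2*. The collagen VI gene *Col6a6* was at 4.08, 9.98 and 6.62 FPKM in controls and 4.07, 4.78 and 4.98 FPKM in STZ hearts, and the cell-surface proteoglycan gene *Gpc3* at 24.9, 57.3 and 34.1 against 27.5, 23.0 and 24.6 FPKM. Both had control 2 highest, control 3 next and control 1 near the STZ hearts. Over the 5 libraries other than control 2, 0 of these 10 genes remained among the 10 closest. That list was led by *Eif2s3x*, an X-linked translation factor gene that escapes X inactivation, at 25.4 and 41.6 FPKM in controls 1 and 3 and 24.98, 26.1 and 26.1 FPKM in STZ hearts, so the likeness there rested on the height of control 3.

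Neighbouring annotation gave little overlap. In GENCODE M21, 9 of the 10 members had the same coordinates as in the deposited table, *Msln* being the exception. *Aldh1a2*, *Rspo1*, *Tbx18* and *Krt8* each overlapped 1 other annotated gene on the opposite strand, all at no more than 0.200 FPKM, and without a stated strand setting their reads cannot be told apart. The copy *Krt8-ps* was at 0.126 FPKM in STZ 2 and 0 elsewhere, and the antisense neighbour *Wt1os* at 0.0644 to 0.481 FPKM.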

How the data were processed

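RNA-seq libraries of 6 hearts came from total RNA and a SMARTER kit for mRNA, per the labels' protocols. The authors deposited 1 table of FPKM-type values on GRCm38 (mm10), per the submitters' processing notes; the unit was read from the table's abbreviation and its values, and for aligner, counter and strand nothing is given in the sources used here. Multiplied by gene length, values fell on whole steps within a library (100% within 0.01 reads), and these steps gave the recovered reads. The members, lists, motifs and tests were chosen with earlier results of these data known. Genes with at least 1 FPKM in at least 3 libraries (12431) were fitted as log2(FPKM + 1) with group as the only term in limma 3.58.1 (mean-variance trend, R 4.3.3), two-sided, with Benjamini-Hochberg adjustment over all of them and a threshold of 0.05. Fold changes on this scale understate those of low genes. Single genes also had an exact two-sided permutation test over the 20 assignments of the libraries. Members, the 2 tested genes of lowest p per list and the 10 genes of closest profile were named by rule. Other genes of the lists were named after their values were seen. On simulated counts for the 12431 genes with the median gene's spread, the fit found 88% of 200 genes at 2-fold (10 false calls) and 100% at 4-fold (18 false calls). Every simulated gene had that same spread, and no simulated library stood apart as control 2 does. Only genes above a minimum level were changed. These shares therefore do not say what the fit could find among the members. No library was a copy of another (chi-square over its degrees of freedom 11.8 or more). Alternatives covered pseudocounts of 0.1 and 0.5, filters, scaling (recovered reads, TMM, quantile), robust variances, array weights, a replicate block, voom, protein-coding genes and each library left out. Promoters are from RefSeq (GRCm38.p6). Python 3.11.15 and matplotlib 3.10.9 made the figures.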

Additional observations from a re-analysis of the deposited data

How the results depend on the processing

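Of 157 member fold changes recomputed under alternatives, 153 kept their direction and none passed the BH-adjusted limma threshold (lowest adjusted p 0.690, without control 3). The 4 that turned were all of *Wt1*: -0.039 when scaled to recovered reads, -0.059 without control 1, -0.0079 without control 2 and -0.051 without STZ 2, against 0.11 without control 3. The cause was not tested. The members' median ranged from -0.93 (without control 1) to -0.19 (without control 2) over fits without 1 library, and from -0.68 (voom) to -0.19 (array weights, which gave control 2 a weight of 0.146) under other settings. *Upk1b* stayed under an unadjusted limma p of 0.05 in every setting in which it was tested, and was the sole member there with no filter, recovered reads as the scale or array weights, and without control 2, control 3, STZ 1 or STZ 2. Over all genes, 2 passed the threshold as higher and 1 as lower. The higher count was 1 with a pseudocount of 0.1, no filter, a mean of at least 5 FPKM or voom, and the lower count 2 with quantile normalization and 6 with array weights. Fits without 1 library gave 1 to 2 higher and 1 to 3 lower. Both counts were 0 with protein-coding genes alone (limma, unadjusted p under 0.05 for 113 higher and 144 lower). With the replicate number as a block both were also 0 (limma, 148 higher and 225 lower unadjusted), and the block called no member. Same-numbered samples did not deviate together (correlations 0.021, -0.041 and 0.092 across genes). The deviations were from group means that include control 2, which stood apart. The check therefore cannot decide whether same-numbered samples share more than a number. Depth limits *Rspo1*, *Krt8*, *Krt19* and *Upk1b* most, with 27 to 84 reads in control 1 and the STZ hearts.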

Other observations

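Marker genes of other cell types, by the rule for lists, had the following values, none past the BH-adjusted limma threshold. The rule takes the tested genes of lowest p in each list, which favours groups without overlap. Over all genes tested, 3.62% were lower without overlap. The fibroblast proteoglycan genes *Lum* and *Dcn* were at 80.9 ± 12.3 and 95.5 ± 12.7 FPKM in control and 60.8 ± 3.88 and 73.2 ± 3.24 FPKM in the STZ group (all errors here are SD with n = 3), with all controls above all STZ hearts. *Myh11*, the smooth muscle myosin gene, was at 7.51 ± 2.82 and 4.63 ± 0.423 FPKM, also without overlap, and *Abcc9*, a pericyte channel subunit gene, at 35.7 ± 19.96 and 51.0 ± 3.09 FPKM. Of the macrophage genes, *Lyz2* had means of 23.0 ± 6.26 and 13.7 ± 1.39 FPKM without overlap, and *C1qc* had 6.77 ± 4.49 and 4.21 ± 0.487 FPKM. The endothelial genes *Emcn* and *Esam* were at 10.2 ± 1.25 and 27.5 ± 5.54 FPKM in control and 9.17 ± 0.316 and 31.4 ± 2.66 FPKM in STZ hearts. The cardiomyocyte genes *Ryr2* and *Pln* were at 42.9 ± 18.3 and 340 ± 203 FPKM in control and 54.0 ± 5.12 and 466 ± 86.6 FPKM in STZ hearts. With control 2 left out, the log2 fold changes were -0.28 for *Lum*, -0.27 for *Dcn*, -0.29 for *Myh11*, -0.47 for *Lyz2* and -0.10 for *Emcn*. They were 0.013 for *Ryr2*, 0.015 for *Pln*, 0.11 for *Abcc9*, 0.011 for *C1qc* and 0.034 for *Esam*.

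*Nr2f2*, of atrial and venous cells, was at 3.82 ± 0.930 and 2.53 ± 0.366 FPKM without overlap, while *Myl7*, the atrial light chain gene, was at 5.03, 3930 and 18.3 FPKM in controls and 5.81, 3.43 and 2.92 FPKM in STZ hearts. *Dio2* and *Cidea* of the brown fat list were at 1.89 ± 0.329 and 36.4 ± 24.4 FPKM in control and 1.10 ± 0.431 and 20.5 ± 2.30 FPKM in STZ hearts. The erythroid genes *Slc4a1* and *Hbb-bt* were at 2.78 ± 1.76 and 455 ± 437 FPKM against 1.04 ± 0.564 and 142 ± 57.8 FPKM. With control 2 left out, the log2 fold changes were -0.29 for *Nr2f2*, -1.14 for *Myl7*, -0.38 for *Dio2* and -0.12 for *Cidea*. Those of *Slc4a1* and *Hbb-bt* were -0.47 and -0.54.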
